A study of Mus musculus with 14 samples.

Results

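Contacts of a site named the CTCF bait were compared with those of 2 sites inside introns of Stag1, named Nanog bait 1 and Nanog bait 2, in mouse embryonic stem cells (ESC). The comparison used 9 of the 14 UMI-4C libraries of the series, chosen by the bait and cell type in their titles, namely 2 of the CTCF bait, 4 of bait 1 and 3 of bait 2. The ESC were untreated, carried no named genetic change and were grown in 2i medium with LIF, which is the same for all 9 libraries. The groups differed by label in the bait alone, and also in depth, which is given below. The labels name no cell line and do not say whether replicates were separate cultures, so p-values measure the spread between these samples, which may be technical. UMI-4C counts DNA and gives no expression level, so the cell type could not be checked against marker genes. What the words Nanog and CTCF in the bait names stand for is not given in the sources used here.

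UMI-4C measures which places of the genome lie close to 1 chosen place, the bait. Crosslinked chromatin is cut at GATC sites and religated, and each molecule joined to the bait is counted once by its sheared end, its unique molecular identifier (UMI). CTCF is a DNA-binding protein at which loops made by the cohesin complex tend to stop, and Stag1 encodes STAG1 (SA1), 1 of the alternative cohesin subunits that help place the complex on chromatin. Contact frequency falls with distance from any bait, so baits at different places can be compared either in the same windows of the genome or at matched distance.

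All baits lie on chromosome 9 (GRCm38). The CTCF bait end, at position 100455377, is intergenic and 2342 bp from the annotated end of Il20rb, which encodes an interleukin receptor subunit. Bait 1, at position 100619989, and bait 2, at position 100641698, are intronic, 22.2 kb and 43.9 kb inside Stag1 (ENSMUSG00000037286.15, 100597798 to 100959375, plus strand). Bait 1 is 165 kb and bait 2 is 186 kb from the CTCF bait, both towards higher coordinates. The GATC site at which each bait end lies is shown because it defines the point from which every distance below is taken; the 100 bases of GRCm38 around it are given 5′ to 3′ on the plus strand, with that GATC in capitals, for the CTCF bait (chr9:100455328-100455427), bait 1 (chr9:100619939-100620038) and bait 2 (chr9:100641649-100641748).
CTCF bait: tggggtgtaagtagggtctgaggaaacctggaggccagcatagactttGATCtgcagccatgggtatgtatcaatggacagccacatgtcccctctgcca
bait 1: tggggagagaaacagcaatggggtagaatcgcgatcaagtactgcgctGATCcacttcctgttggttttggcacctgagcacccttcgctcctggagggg
bait 2: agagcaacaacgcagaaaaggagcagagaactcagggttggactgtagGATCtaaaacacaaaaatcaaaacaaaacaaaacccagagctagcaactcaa

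The region examined was chr9:99640001-101440000, which is 1800 kb long, holds 8468 ends at GATC sites and was divided into 90 windows of 20 kb. Ends within 10 kb of any bait were left out. Libraries held between 7172 and 51412 UMIs, and between 2769 and 23288 of these were in the region, so that 3 UMIs correspond to 0.0129% to 0.108% of that number. Replicates 1 and 4 of bait 1 shared 85.7% of their ends on other chromosomes and replicates 2 and 3 shared 82.6%, against at most 2.44% for the other 34 pairs, so each of these pairs was averaged and counted as 1 sample. This left 2 CTCF bait samples and 5 intron samples (2 of bait 1 and 3 of bait 2). CTCF bait replicate 1 was the deepest library and replicate 2, with 4070 UMIs in the region, lay within the range of the intron samples (2769 to 8916 UMIs). With 2 samples against 5 there are 21 regroupings, and the smallest two-sided p of the exact permutation test is 0.0952, so no share below could pass a threshold of 0.05.

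Contacts of the CTCF bait reached further than those of the intron baits. Shares are percentages of the UMIs between 10 kb and 780 kb from the bait, the largest multiple of 20 kb that lies inside the region on both sides of every bait. Within 100 kb of the bait lay 28.7% ± 2.74 (SD, n = 2) of the UMIs from the CTCF bait and 45.0% ± 3.19 (SD, n = 5) from the intron baits. The CTCF bait replicates had 26.7% and 30.6%. The intron samples had 42.8% and 46.1% from bait 1, and 40.6%, 48.2% and 47.3% from bait 2, so that every intron sample lay above both CTCF bait samples. At each bait the deepest sample had the lowest near share, and the highest count of an end was 40 to 70 UMIs in every library whatever its depth. The part of either in the shares was not tested. Between 100 kb and 200 kb the order of the groups was the same, with 9.33% ± 0.684 (n = 2) from the CTCF bait and 19.9% ± 1.195 (n = 5) from the intron baits.

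Beyond 200 kb the order was the opposite. Between 200 kb and 500 kb lay 33.7% ± 1.21 (SD, n = 2) of the UMIs from the CTCF bait and 27.5% ± 1.51 (SD, n = 5) from the intron baits, and the groups did not overlap. This difference turned to −1.17 percentage points when each fragment end was counted once, whatever its UMIs (exact permutation p = 0.857). The libraries listed 1670 to 3657 such ends in the region from the intron baits and 5996 and 2580 from the CTCF bait, and the part of depth in this value was not tested. Between 500 kb and 780 kb the CTCF bait replicates had 28.9% and 27.7% of the UMIs. Bait 1 had 10.5% and 8.20% in this range, and bait 2 had 8.62%, 5.37% and 5.55%. The far share was thus 3.70-fold higher from the CTCF bait, at 28.3% ± 0.847 (n = 2) against 7.64% ± 2.17 (n = 5), and bait 1 lay between the CTCF bait and bait 2 in its mean (9.33%, against 6.51% for bait 2). All 4 of these shares had the smallest possible exact permutation p of 0.0952 (two-sided, 0.111 after Benjamini-Hochberg adjustment over the 7 shares compared).

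**Figure D1:**
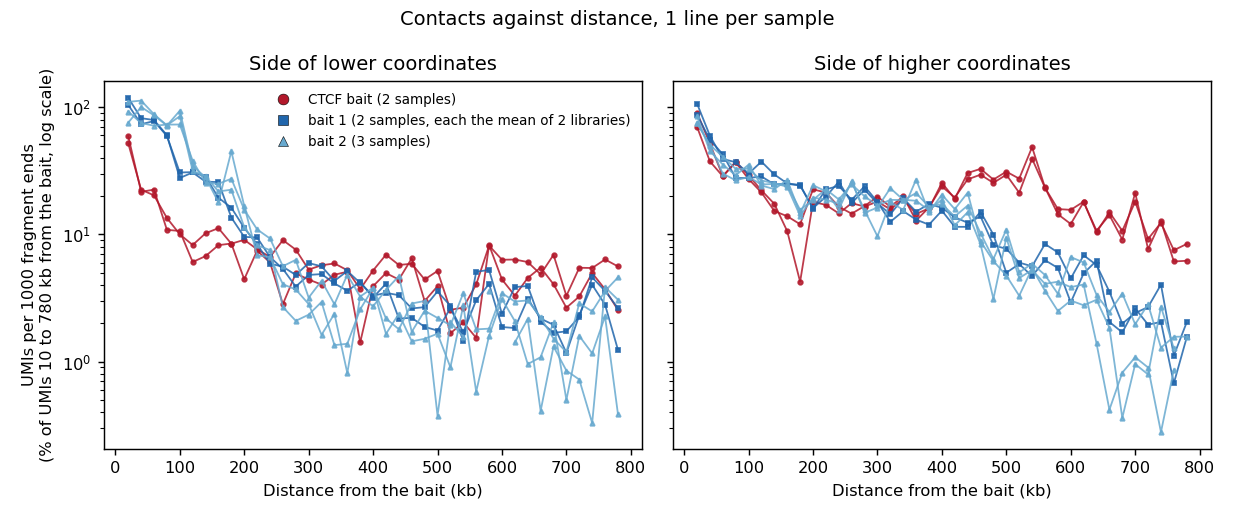
Contacts against distance from the bait. Each line is 1 sample, with the UMIs in rings of 20 kb on a log scale, as a percentage of the UMIs 10 to 780 kb from the bait and per 1000 GATC ends of the ring, and rings with no UMI are not drawn. On the side of higher coordinates the CTCF bait lines rise again, to 39.4 and 48.6 in the ring centred at 540 kb, where the intron samples lie between 4.69 and 5.87.

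The plot of contacts against distance shows where the far contacts of the CTCF bait lay. On the side of higher coordinates its contacts fell to 12.02 and 4.24 (% of UMIs per 1000 ends, replicates 1 and 2) in the ring centred at 180 kb, which holds bait 2 and in which only 12 ends were kept. Further out they were higher again and reached 39.4 and 48.6 in the ring at 540 kb, which lies in Pccb. The intron baits showed no rise at that distance, with 4.69 to 5.87 in the 5 samples. On the side of lower coordinates no such rise was seen at 540 kb, where the CTCF bait had 2.66 and 2.03 and the intron samples had 1.46 to 3.44.

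**Figure D2:**
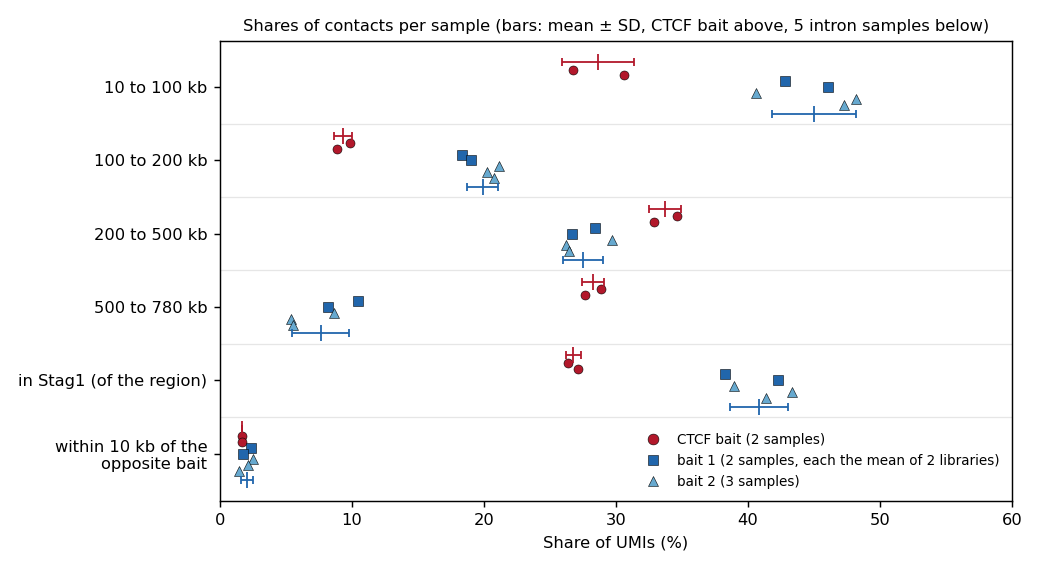
Shares of contacts per sample. Points are samples, bars above and below them are the mean ± SD of the 2 CTCF bait samples and of the 5 intron samples; the first 4 rows are shares of the UMIs 10 to 780 kb from the bait, the row for Stag1 is a share of the UMIs of the region. The 2 groups do not overlap in any row except that of the opposite bait, where the CTCF bait samples (1.70% and 1.67%) lie inside the range of the intron samples (1.42% to 2.52%).

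The side of the contacts was compared next, to ask whether they leaned towards the side of the other baits. The shares run to 780 kb and so far past the interval between the baits, which is 165 kb to bait 1 and 186 kb to bait 2. The facing side is that of higher coordinates for the CTCF bait and of lower coordinates for the intron baits. The facing share was 73.0% ± 3.43 (SD, n = 2) from the CTCF bait and 49.2% ± 1.44 (SD, n = 5) from the intron baits. The CTCF bait replicates had 70.6% and 75.5%, bait 1 had 50.6% and 50.8%, and bait 2 had 47.4%, 48.7% and 48.7%, so the groups did not overlap (exact permutation p = 0.0952, adjusted 0.111). Within 100 kb, contacts leaned to the facing side to a like extent in both groups, with 67.4% ± 2.02 (n = 2) from the CTCF bait and 67.7% ± 5.35 (n = 5) from the intron baits (exact permutation p = 0.952). Bait 1 (73.4% in the mean) leaned more than bait 2 (63.8%), and the CTCF bait lay between them. For bait 1, 61.0% of the ends that were kept within 100 kb lay on the facing side, against 47.2% for bait 2 and 52.7% for the CTCF bait, since the ends around the neighbouring intron bait were left out, and the part of these ends in the difference was not tested. Between 100 kb and 200 kb the facing share was 56.7% ± 4.79 (n = 2) from the CTCF bait and 50.3% ± 7.64 (n = 5) from the intron baits. The groups overlapped there (exact permutation p = 0.381).

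Between 200 kb and 500 kb, both groups leaned to the same side of the chromosome. Of the UMIs in this range, 78.3% ± 3.85 (SD, n = 2) from the CTCF bait and 79.2% ± 3.26 (SD, n = 5) from the intron baits lay on the side of higher coordinates. The CTCF bait replicates had 75.6% and 81.1%, and the intron samples had 76.1%, 76.9%, 77.6%, 83.3% and 82.1%, so the groups overlapped (exact permutation p = 0.667). In terms of the facing side this is 78.3% against 20.8%, because that side is the opposite one at the intron baits. From 500 kb to 780 kb the lean was larger from the CTCF bait, with 77.9% ± 4.45 (n = 2) on the side of higher coordinates against 61.4% ± 2.22 (n = 5), and the groups did not overlap (exact permutation p = 0.0952, adjusted 0.190 over the 4 ranges). The name of the sides by coordinate was added after the data were seen.

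**Figure D3:**
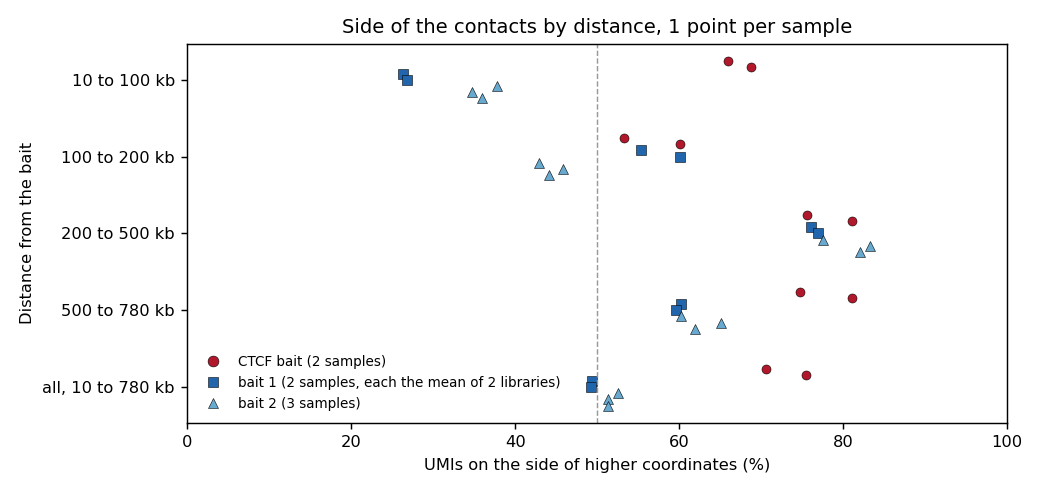
Percentage of UMIs on the side of higher coordinates, by distance from the bait. Each point is 1 sample and the dashed line is at 50%. Within 100 kb the CTCF bait samples (66.0% and 68.8%) lie to the right and the 5 intron samples (26.4% to 37.8%) to the left of the line, whereas all 7 samples lie between 75.6% and 83.3% at 200 to 500 kb.

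The contact between the CTCF bait and the intron baits can be seen from both ends. From the CTCF bait, 1.69% and 1.52% of the UMIs lay within 10 kb of bait 1, and 1.70% and 1.82% lay within 10 kb of bait 2 (replicates 1 and 2). From the intron baits, the share within 10 kb of the CTCF bait was 2.34% and 1.75% for bait 1, and 2.52%, 2.16% and 1.42% for bait 2. The mean of 1.68% ± 0.0169 (SD, n = 2) from the CTCF bait did not differ from 2.04% ± 0.448 (SD, n = 5) from the intron baits beyond the spread between samples (exact permutation p = 0.381), in a test that leaves out the replicate numbers. Within number 1 and within number 2, the CTCF bait value was below that of each intron bait. At the place equally far on the other side of the bait, the share was 0.694% ± 0.164 from the CTCF bait and 1.49% ± 0.0920 from the intron baits. At the mirror place the CTCF bait samples had 0.8096% and 0.578%, bait 1 had 1.62% and 1.51%, and bait 2 had 1.48%, 1.46% and 1.37%. The opposite bait was above its mirror place in each sample, by little in bait 2 replicate 3 (1.42% against 1.37%), and this was not tested.

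Of all UMIs counted in the region, Stag1 itself took 26.8% ± 0.561 (SD, n = 2) from the CTCF bait, which is outside the gene, and 40.8% ± 2.18 (SD, n = 5) from the baits inside it. The replicates of the CTCF bait had 26.4% and 27.1%, bait 1 had 38.3% and 42.3%, and bait 2 had 38.9%, 43.3% and 41.4%, with no overlap (exact permutation p = 0.0952, adjusted 0.111). The order along the gene changed from its start to its end. The 5′ part of Stag1, from 100597798 to 100718323, had 5.33% ± 0.315 (n = 2) of the UMIs from the CTCF bait and 18.6% ± 1.79 (n = 5) from the intron baits. The middle part, to 100838849, had 7.94% ± 0.0270 and 12.2% ± 0.667. The 3′ part, to 100959375, had more from the CTCF bait, with 13.5% ± 0.849 against 10.04% ± 0.3997, although both intron baits are closer to it.

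Distance was then taken out by dividing the UMIs of each place by those expected from the distance of its GATC ends to the bait (observed over expected). The expectation was a falling curve made for each bait from both sides together. Past 780 kb, at a distance that differs between baits, the region ends on 1 side of the bait. From there the curve comes from the other side alone, and the part of this in the far ratios was not tested. By the ratio of observed to expected, Stag1 was above expectation from the CTCF bait, at 1.59 ± 0.0299 (SD, n = 2), and near it from the intron baits, at 0.963 ± 0.0903 (SD, n = 5). The CTCF bait samples had 1.56 and 1.61, and the intron samples 0.993, 1.098, 0.859, 0.954 and 0.912, so the groups did not overlap (exact permutation p = 0.0952, adjusted 0.171 over 9 segments). The ratio from the CTCF bait was highest in the 3′ part of the gene (2.03 ± 0.120, against 1.52 ± 0.0860 from the intron baits), followed by the 5′ part (1.36 ± 0.0807 against 0.871 ± 0.0784) and the middle part (1.26 ± 0.00428 against 0.864 ± 0.193). Beyond the gene, from its end to the start of Ppp2r3a, both groups were above expectation and overlapped (1.69 ± 0.0530 and 1.59 ± 0.134, exact permutation p = 0.190). The 579 kb below the CTCF bait, up to Sox14, were below expectation in both groups, with 0.505 ± 0.0504 from the CTCF bait and 0.488 ± 0.0994 from the intron baits (exact permutation p = 0.857). In the far 236 kb from Dzip1l to Sox14, the CTCF bait had 0.589 ± 0.120 and the intron baits 1.29 ± 0.348, with no overlap. Part of this stretch is so far from the intron baits that their curves come from 1 side alone.

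These ratios changed when the sides were not pooled. With a curve for each side of each bait, Stag1 as a whole had 0.929 ± 0.0176 (SD, n = 2) from the CTCF bait and 1.003 ± 0.0530 (SD, n = 5) from the intron baits, and the groups overlapped. The 5′ part (0.8002 ± 0.0473 and 1.03 ± 0.0936) and the middle part (0.738 ± 0.00251 and 0.957 ± 0.0519) turned in direction, each with no overlap. From the CTCF bait the middle part was above the 5′ part with 1 curve common to the 3 baits (1.56 and 1.22). The same order held with a straight line per bait (1.37 and 1.17) and, by little, with each end counted once (1.292 and 1.278). The 3′ part stayed higher from the CTCF bait, with 1.19 ± 0.0705 against 1.01 ± 0.0419 and no overlap, but the groups overlapped with a straight line per bait (2.67 ± 0.159 and 2.36 ± 0.166). From the Stag1 end to Ppp2r3a the groups no longer overlapped with a curve for each side (1.11 ± 0.0346 from the CTCF bait and 1.01 ± 0.0589 from the intron baits) or with 1 curve common to the 3 baits (3.24 ± 0.101 and 1.13 ± 0.0739), and the means turned in direction, with overlap, with a straight line per bait (2.02 ± 0.0632 and 2.57 ± 0.478) and with each end counted once (1.34 ± 0.206 and 1.503 ± 0.148). The interval from Sox14 to the CTCF bait was near expectation in both groups with a curve for each side (0.967 ± 0.0965 and 0.9603 ± 0.176). With a straight line per bait it was lower from the CTCF bait, with no overlap (0.513 ± 0.0512 and 0.722 ± 0.133). In the far 236 kb the groups overlapped with a curve for each side (1.13 ± 0.229 and 1.16 ± 0.313), and with 1 curve common to the 3 baits they overlapped with the means turned in direction (1.18 ± 0.2399 and 0.923 ± 0.2602). With each end counted once, the groups overlapped in Stag1 as a whole (1.36 ± 0.323 and 1.07 ± 0.126), the middle part (1.29 ± 0.226 and 0.983 ± 0.129) and the 3′ part (1.47 ± 0.489 and 1.38 ± 0.0543). These alternative curves for parts of the region were chosen after the data were seen.

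**Figure D4:**
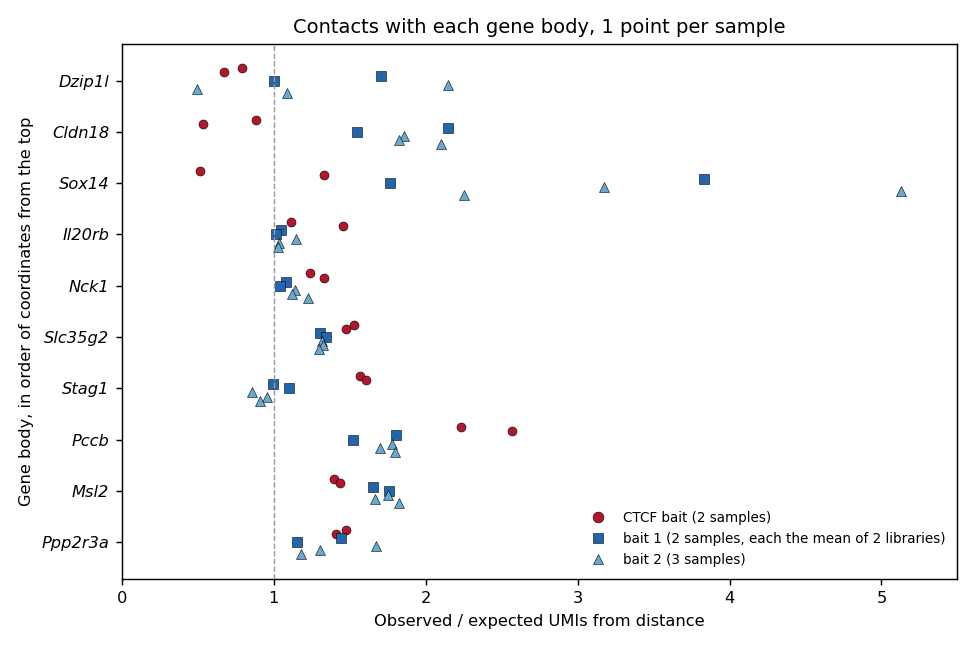
Observed over expected UMIs for each gene body of the region. Points are samples, 1 is the value expected from distance with a curve for each bait over both sides, and ends within 10 kb of any bait were left out. The CTCF bait samples lie to the right of the intron samples for Stag1, Pccb, Slc35g2 and Nck1, and to the left for Msl2 and Cldn18, and the Sox14 points rest on 1 to 11 UMIs.

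The 10 protein-coding genes of the region were examined in the same terms. Pccb, which encodes a subunit of the mitochondrial propionyl-CoA carboxylase and lies next to the Stag1 end, was the gene furthest above expectation from the CTCF bait, at 2.40 ± 0.237 (n = 2), against 1.72 ± 0.118 (n = 5) from the intron baits. Slc35g2, a gene of a solute carrier family, had 1.504 ± 0.0369 and 1.32 ± 0.0179, and Nck1, which encodes a signalling adaptor, had 1.29 ± 0.0671 and 1.12 ± 0.0685. The groups did not overlap in these 3 genes. With a curve for each side, Pccb still did not overlap (1.46 ± 0.144 and 1.05 ± 0.0681), whereas Slc35g2 (0.994 ± 0.0244 and 0.972 ± 0.0842) and Nck1 (0.9701 ± 0.0507 and 0.957 ± 0.0376) did. With 1 curve common to the 3 baits, Slc35g2 (0.852 ± 0.0209 and 1.70 ± 0.101) and Nck1 (0.7499 ± 0.0392 and 1.35 ± 0.227) turned in direction, and they did so with a straight line per bait too (1.19 ± 0.0292 and 1.73 ± 0.242 for Slc35g2, 1.14 ± 0.0597 and 1.6 ± 0.3296 for Nck1). Pccb overlapped with a straight line per bait (3.49 ± 0.344 and 3.46 ± 0.687) and with each end counted once (1.65 ± 0.593 and 1.59 ± 0.103). Msl2, which encodes a subunit of a histone acetyltransferase complex, was the other way round, with 1.42 ± 0.0258 from the CTCF bait and 1.73 ± 0.0700 from the intron baits. Cldn18, a claudin of tight junctions, had 0.7103 ± 0.247 against 1.90 ± 0.241, with no overlap. With 1 curve common to the 3 baits, Msl2 was higher from the CTCF bait (2.73 ± 0.0498 against 1.07 ± 0.0433) and Cldn18 overlapped. Sox14, a transcription factor gene 2 kb long, held 11 and 5 UMIs from the CTCF bait and 6.5, 1.5, 3, 2 and 1 from the intron samples, at or under the floor of 3 UMIs in 4 of these 5, so its ratios (0.922 ± 0.580 and 3.23 ± 1.33) were not compared. Il20rb (1.28 ± 0.2402 and 1.05 ± 0.0533), Ppp2r3a (1.44 ± 0.0494 and 1.35 ± 0.215), which encodes a regulatory subunit of a protein phosphatase, and Dzip1l (0.732 ± 0.0827 and 1.29 ± 0.645), which encodes a protein of the ciliary base, overlapped between the groups. Ppp2r3a did not overlap with 1 curve common to the 3 baits (2.997 ± 0.103 and 0.732 ± 0.143). Dzip1l did not overlap with a straight line per bait (0.594 ± 0.0670 and 1.702 ± 0.857).

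The same windows were tested 1 by 1 on their UMI counts with the quasi-likelihood test of edgeR. As shares of the UMIs of the region, 45 of 90 windows (50%) were higher from the CTCF bait and 15 (16.7%) were lower, at an adjusted p of 0.05. All 15 lower windows lay between 100520001 and 100840000, with centres at most 188 kb from an intron bait, and 12 of them were among the 19 windows that overlap Stag1. Of the 45 higher windows, 27 were among the 41 windows below the CTCF bait, 3 among the 8 between it and bait 1, and 15 among the 41 above bait 1. The split between directions depended on what the counts were divided by, since these are shares of a fixed total. The median log2 difference over the 90 windows was 0.78 when counts were divided by all UMIs counted in the region, 0.21 with TMM factors (15 windows higher and 18 lower), 0.06 with DESeq2 (3 and 19) and 0.97 with all UMIs of chromosome 9 (62 and 11). Without CTCF bait replicate 1, the deepest library, 17 windows were higher and 13 lower. With each fragment end counted once, whatever its UMIs, 0 windows were higher and 6 lower by edgeR (26 at an unadjusted p under 0.05).

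**Figure D5:**
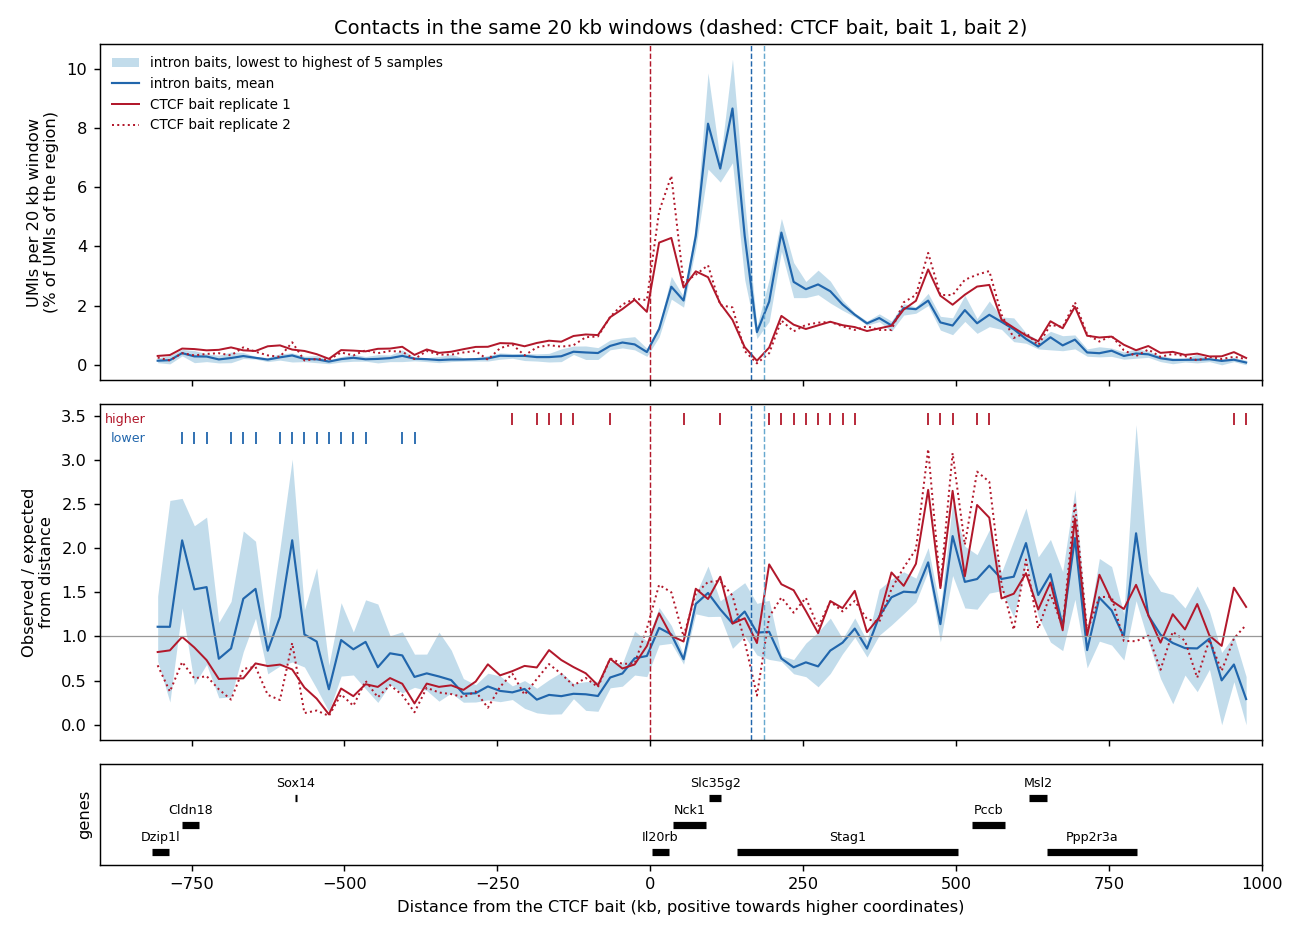
Contacts in the same 20 kb windows, against the distance of the window from the CTCF bait. The upper panel gives the percentage of the UMIs of the region, the middle panel the ratio to the UMIs expected from distance, with a tick for each window called higher (23) or lower (16) from the CTCF bait, and the lower panel the gene bodies. Both CTCF bait lines exceed the band of the intron samples at the 3′ end of Stag1 and in the windows starting at 100980001 and 101000001 in Pccb, but not in that of the Pccb start, and they reach 2.66 and 3.12 times the expected value at the 3′ end of Stag1.

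The windows with the largest differences in share lay next to the baits. They are nearer to 1 group of baits than to the other, so distance fixed the direction of these differences in advance. The p-values given for them test nothing beyond that. Scaled to distance, the window of bait 1 was not called (log2 difference −0.15, adjusted p = 0.547, edgeR). From the CTCF bait, the window that holds bait 1 (100600001 to 100620000) had 0.597% and 0.467% of the UMIs of the region, against 4.77% and 5.51% from bait 1 and 2.88%, 4.62% and 3.997% from bait 2. All 5 intron samples lay above both CTCF bait samples, with a log2 difference of −2.93 ± 0.23 (SE, adjusted p = 1.64e-08, edgeR). The next window (100620001 to 100640000), between the intron baits, had the largest fall, of −3.15 ± 0.27. Most of that window lies within 10 kb of a bait and was left out, and CTCF bait replicate 2 had 0.0491% there, under its floor of 0.0737%. Its log2 difference was −4.40 to −1.52 over the alternatives and was not called with each end counted once (adjusted p = 0.155, edgeR). The window of the Stag1 start (100580001 to 100600000) differed by −2.36 ± 0.19, with 1.52% and 1.94% from the CTCF bait and 6.83% to 10.3% from the intron baits. The windows of bait 2 (100640001 to 100660000, −1.93 ± 0.24) and of the Slc35g2 start (100560001 to 100580000, −1.69 ± 0.13) completed the 5 largest falls, and the window of the Nck1 start (100540001 to 100560000) differed by −1.36 ± 0.17. In the other direction, the windows around the CTCF bait, from 100420001 to 100480000, had log2 differences of 1.67 ± 0.15, 2.05 ± 0.17 and 1.88 ± 0.13. The largest of these was in the window of the bait itself, which had 1.79% and 2.19% from the CTCF bait and 0.286% to 0.561% from the intron baits. That value was −0.11 when only the ends around a library's own bait were left out, because the ends around the CTCF bait then stay in for the intron baits alone.

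Further from the baits, the window of the Il20rb start (100480001 to 100500000) was higher from the CTCF bait by 0.96 ± 0.15 (adjusted p = 4.24e-05, edgeR). The window of the Sox14 start (99860001 to 99880000) was higher by 0.85 ± 0.36 (adjusted p = 0.0487, edgeR), a call that 8 of its 19 alternatives kept. The windows starting at 100160001 and 99820001, which hold no gene, were higher by 1.45 ± 0.33 and 1.43 ± 0.37. At the other end of Stag1, the window with its last base (100940001 to 100960000) had 2.03% and 2.36% from the CTCF bait, 1.27% and 1.02% from bait 1, and 1.52%, 1.59% and 1.24% from bait 2. The CTCF bait samples both lay above all intron samples there, with a log2 difference of 0.70 ± 0.14 (adjusted p = 0.000522, edgeR). The starts of 4 genes did not pass the test, namely Cldn18 (0.426% ± 0.151 from the CTCF bait and 0.285% ± 0.148 from the intron baits), Pccb (1.61% ± 0.121 and 1.45% ± 0.176), Msl2 (1.04% ± 0.0630 and 0.875% ± 0.133) and Ppp2r3a (0.394% ± 0.141 and 0.383% ± 0.124). Of the 9 windows that hold a gene start, 2 were higher, 3 lower and 4 not called, against 50% and 16.7% of all 90 windows higher and lower.

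With the counts scaled to distance, 23 of 90 windows (25.6%) were higher from the CTCF bait and 16 (17.8%) lower at an adjusted p of 0.05 (edgeR). The split depended on the curve and on the samples. There were 45 higher and 11 lower with 1 curve common to the 3 baits (median log2 difference 0.58, against 0.13 with a curve for each bait), 5 and 21 with a straight line (−0.47), 4 and 6 with a curve for each side of each bait, 9 and 14 with DESeq2, 6 and 8 without CTCF bait replicate 1, 11 and 10 without CTCF bait replicate 2, and 17 and 21 in a fit blocked by replicate number, which kept 17 of the 23 higher calls and all 16 lower ones. With each end counted once 0 windows passed (12 at an unadjusted p under 0.05, edgeR). All 16 lower windows lay between 99680001 and 100080000, and their centres were 385 to 765 kb from the CTCF bait and 550 to 930 kb from the nearest intron bait. At the farthest of them the curves of the intron baits come from 1 side alone. The strongest started at 99900001 (log2 difference −1.97 ± 0.42, adjusted p = 0.00327), 99920001 (−1.93 ± 0.43), 99880001 (−1.73 ± 0.40), 99960001 (−1.59 ± 0.34) and 99860001, which holds the Sox14 start (−1.57 ± 0.35). These windows were thin, with 86 to 252 UMIs over the 7 samples. In the window at 99900001 the CTCF bait had 0.296 and 0.162 times the expected UMIs, bait 1 had 0.873 and 0.753, and bait 2 had 1.78, 0.410 and 0.901, so the groups did not overlap. The groups did not overlap in 9 of the 16 lower windows and in 18 of the 23 higher ones. In the other 7 lower windows, among them that of the Sox14 start, they overlapped. The windows were called on these same values, so such counts are no separate evidence. The 16 lower calls rested on the curve of each bait: with 1 curve common to the 3 baits 3 of them stayed below 0 and 0 were called (11 others were lower), and with a curve for each side 11 stayed below 0 and 0 were called.

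Most of the 23 higher windows lay in 3 stretches. A run of 8 windows from 100640001 to 100800000, in Stag1 and next to bait 2, had log2 differences of 0.43 to 1.15, led by the windows starting at 100680001 (1.15 ± 0.15, adjusted p = 2.05e-05) and 100660001 (1.04 ± 0.12, adjusted p = 1.74e-05). In the first of these the CTCF bait had 1.52 and 1.27 times the expected UMIs, bait 1 had 0.615 and 0.739, and bait 2 had 0.578, 0.594 and 0.729. This run depended on how the expectation was made. The curves pool both sides, and the intron baits had only 32.3% ± 5.35 (n = 5) of their contacts within 100 kb on this side. With a curve for each side, the log2 differences at 100660001 and 100680001 were −0.05 and −0.23, and the windows starting at 100700001, 100720001 and 100760001 were called lower (−0.42, −0.48 and −0.39). The other 3 lower calls with that curve were also in Stag1, namely the window of bait 1 (−0.67 ± 0.17, adjusted p = 0.00445, edgeR) and those starting at 100620001 (−0.99 ± 0.27) and 100820001 (−0.48 ± 0.12).

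The stretch at the far end of Stag1 was the only one with calls in the same direction with a curve for each side, and it held no call with each end counted once. At the 3′ end of Stag1 and in Pccb, 5 windows between 100900001 and 101020000 were called higher from the CTCF bait, and 4 of them were also the only windows called higher with a curve for each side. The window starting at 100900001 had 2.66 and 3.12 times the expected UMIs from the CTCF bait, 1.93 and 1.75 from bait 1, and 2.01, 1.77 and 1.74 from bait 2. Its log2 difference was 0.62 ± 0.13 (adjusted p = 0.00323, edgeR), and 0.46 with a curve for each side (adjusted p = 0.00445). The window starting at 100980001, at the annotated end of Pccb, had 2.49 and 2.87 from the CTCF bait and 1.31 to 1.93 from the intron baits, a log2 difference of 0.65 ± 0.15 (adjusted p = 0.00358) and of 0.55 with a curve for each side. The windows starting at 101000001 (0.51 ± 0.15) and 100920001 (0.43 ± 0.14) completed these 4, and that of the Stag1 end (0.39 ± 0.15, adjusted p = 0.0471) was called with 8 of 20 alternatives. With the replicate number as a block, the Stag1 end (adjusted p = 0.0974, edgeR) and 100920001 (adjusted p = 0.0740) were not called. With each end counted once, the log2 differences were 0.091 at 100900001, 0.029 at 100920001, −0.013 at the Stag1 end, 0.11 at 100980001 and −0.084 at 101000001, with adjusted p from 0.920 to 0.998 (edgeR). The windows starting at 100900001, 100980001 and 101000001, that of the Stag1 end and that starting at 101140001, in Ppp2r3a, had the 5 highest ratios from the CTCF bait at over 100 kb. From the intron baits the highest ratios at over 100 kb were in the windows of the Ppp2r3a start (2.17 ± 0.793), the Stag1 end (2.14 ± 0.335), 101140001 (2.11 ± 0.468), the Sox14 start (2.09 ± 0.887) and 99680001 in Cldn18 (2.09 ± 0.465). The windows of the Stag1 end and of 101140001 were thus among the 5 highest from both sides.

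A further run of 4 windows, from 100260001 to 100340000 in the gene-free interval below the CTCF bait, was higher by 0.64 to 1.04. With a curve for each side these differences were 0.10, 0.19, 0.013 and −0.19, and none was called. Both groups were below expectation there. In the window starting at 100280001 (1.04 ± 0.32, adjusted p = 0.0198, edgeR) the CTCF bait had 0.846 and 0.688 times the expected UMIs, and the intron samples had 0.120 to 0.511. The window at the upper edge of the region (101420001 to 101440000) had the largest value, of 1.70 ± 0.49, on 89 UMIs and with 0 UMIs in 2 of the 5 intron samples. Its centre was 975 kb from the CTCF bait, where the curve of that bait comes from the side of higher coordinates alone. Of the 9 windows that hold a gene start, 6 did not pass this test, and neither did 51 of all 90 windows. Among those not called were the windows of the Stag1 start (adjusted p = 0.527, edgeR), the Nck1 start (0.898) and the Ppp2r3a start (0.101). Those of the CTCF bait (0.446) and bait 1 (0.547) were not called either. The window of the Slc35g2 start was called higher (0.34 ± 0.12, adjusted p = 0.0396), and those of the Cldn18 and Sox14 starts were called lower.

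The letters of the CTCF core consensus were searched on both strands of GRCm38 as a description of the baits and windows. There were 9 matches in 7 of the 90 windows (7.78%), against 9.98% of the 6040 windows of chromosome 9 without unknown bases. The CTCF bait had no match within 10 kb, its nearest lying 57.1 kb below and 65.4 kb above it. Bait 2 had 2 matches at 1.88 kb and 1.93 kb, both on the plus strand. Of the 7 windows with a match, 2 were higher and 1 was lower in the test scaled to distance, near the 25.6% and 17.8% of all windows, and 3 were higher and 2 lower as shares, where 50% and 16.7% of all windows were, and none of the 4 windows at the 3′ end of Stag1 and in Pccb held one. A match is not a measured binding site, and no match says only that these letters are not in the window.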

How the data were processed

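The authors deposited 1 table per library that pairs restriction fragment ends and gives their count in UMIs, which are whole numbers without any normalisation. Bowtie2 and mm10 are named per the labels. The rule for collapsing UMIs and the filters are not given in the sources used here. All listed ends of the region lay at GATC sites of GRCm38 (100%), and genes are those of GENCODE M21. Every pair is listed both ways, so the rows whose second end is the commonest of the table, the bait, were used, and the count was given to the first end. The 5 neural stem cell libraries of the series were not used.

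Libraries of bait 1 that shared over 50% of their ends on other chromosomes were averaged. The depth was 2769 to 23288 UMIs per library in the region, and the highest count of an end was 40 to 70 UMIs whatever the depth. Floors cover counting error only. All 90 windows passed a minimum of 10 UMIs summed over samples and were tested with edgeR 4.0.16 (R 4.3.3), on averaged counts rounded to whole numbers, with all UMIs counted in the region as the library size and Benjamini-Hochberg adjustment. The SE of a log2 difference is its size over the square root of the F statistic. In the test scaled to distance, the log of the expected UMIs was the offset, from an isotonic curve of UMIs per GATC end on distance in steps of 20 kb, per bait. Because this curve is made from the same counts, its own error is not in the p-values. Libraries of the same replicate number deviated together (r = 0.252, 0.315 and 0.369 for the 3 pairs of baits over 90 windows), and number 1 was deeper than number 2 at every bait. The labels do not say what a number marks, and the fit with the number as a block was run beside that without it. Shares were compared by exact permutation tests (scipy 1.17.1, two-sided). The fit was tested on simulated data first, with the known expected counts as the offset, so the estimate of the distance curve was not part of that test. DESeq2 1.42.0, TMM factors and other choices of library size, curve, window, ends and samples were alternatives.

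Windows named in the text hold a bait, a gene start or the Stag1 end, are the 5 with the largest log2 difference in each direction of each test, or have the 5 highest ratios of observed to expected UMIs at over 100 kb in each group. The members and lists were chosen with earlier results of these data known. The windows starting at 100700001, 100720001, 100760001, 100820001 and 100920001 were named after their values were seen.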

Additional observations from a re-analysis of the deposited data

Results flagged for a closer look

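In the window of the Sox14 start (99860001 to 99880000), bait 2 replicate 3 had 0.0952% of the UMIs of the region, far below the other intron samples, which had 0.347% to 0.403%. It was the only such gap among the 95 sets of 5 intron values examined, of which chance gives about 1 in 20. In the 4 bait 1 libraries a second fragment end, 16 bp from the bait end, was also listed as the bait of 112 to 702 UMIs, which is 1.46% to 2.502% of the UMIs of a library and was not used here.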

How the results depend on the processing

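All 7 shares kept their direction under the alternatives run, except the share between 200 kb and 500 kb, which turned from 6.25 to −1.17 percentage points with each fragment end counted once. The number of windows called depended more on the processing. As shares, 60 windows were called, against 33 with TMM factors, 22 with DESeq2, 6 with each end counted once (26 at an unadjusted p under 0.05), 96 of 176 windows of 10 kb and 36 of 45 windows of 40 kb, and 30 to 66 without 1 sample, the lowest without CTCF bait replicate 1. Scaled to distance, 39 were called, against 56 with 1 common curve, 23 with DESeq2, 22 of 45 windows of 40 kb, 10 with a curve for each side and 0 with each end counted once (12 at an unadjusted p under 0.05), and 14 to 36 without 1 sample, the lowest without CTCF bait replicate 1 and with 21 without CTCF bait replicate 2. Leaving out 1 CTCF bait sample assumes that the other varies like the intron samples.

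Some named windows turned in direction. Scaled to distance with 1 curve common to the 3 baits, log2 differences were 0.058 (99860001), 0.00236 (99960001), 0.18 (99680001), 0.26 (99700001), −0.51 (100480001), −1.16 (100540001), −0.80 (100560001), −0.88 (100580001), 0.88 (101020001), 1.29 (101060001) and 0.98 (101240001). With a curve for each side they were −0.15 (100640001), −0.054 (100660001), −0.23 (100680001), −0.42 (100700001), −0.48 (100720001) and −0.39 (100760001), the last 3 called lower. With a straight line they were −0.26 (100260001), −0.15 (100280001), −0.37 (100560001), 1.78 (100620001) and −0.47 (101420001). With each end counted once, they were −0.013 (100940001) and −0.084 (101000001) scaled to distance, and as shares −0.17 (100460001), −0.24 (100480001), −0.17 (100900001), −0.079 (100920001), −0.10 (100940001) and −0.15 (101000001). As shares they were −0.026 with DESeq2 (100900001) and −0.11 with only the own bait left out (100440001). The cause was not tested.

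With the replicate number as a block, 63 windows were called as shares (49 higher, 14 lower) and 38 scaled to distance (17 and 21). Of the windows named by the rules above, the block lost the calls at 100560001 and 100940001 scaled to distance. It gained 1 call in each test, at 101240001 scaled to distance and 99960001 as a share. The window at 100920001, named after its values were seen, also lost its call scaled to distance. The filter on low counts removed 0 windows. Depth limits the far windows on either side most, the thinnest of which held 86 UMIs (starting at 99920001) and 89 UMIs (101420001) over the samples.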
